A study of Mus musculus with 8 samples.

Results

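The prostaglandin E2 receptors EP1, EP2, EP3 and EP4 are the products of the genes Ptger1, Ptger2, Ptger3 and Ptger4. Their RNA was followed in CT26 tumors through every mouse probe of the array whose gene name is one of these 4. This gave 9 probes of 56567, namely 1 for Ptger1, 1 for Ptger2, 4 for Ptger3 and 3 for Ptger4. CT26 cells come from a colon carcinoma of the BALB/c mouse, and the tumors grew under the skin of the flank from 500000 implanted cells. Treatment began at a tumor volume of 100 to 200 mm3 and lasted 2 weeks. The 4 groups received vehicle, TP-16 (BY001 in the labels; daily oral doses of 75 mg/kg), an antibody against PD-1 (2 intraperitoneal doses of 50 µg each week) or TP-16 plus this antibody, each agent at the same dose as alone. The first 3 groups are called vehicle, TP-16 and anti-PD-1 here, and the last is called combination. TP-16 is an antagonist of EP4, so the study's drug blocks the product of 1 of the 4 genes described here, while the antibody targets PD-1, which restrains T cells. Each group had 2 samples of total RNA from whole tumor tissue, which the labels call independent biological replicates, and the 8 samples were hybridised to 8 one-colour arrays. The methods give female mice of 6 to 10 weeks for every strain of the study, and neither they nor the labels say whether a sample was 1 tumor or a pool. The study's survival experiment with the same 4 treatments used BALB/c mice with CT26 tumors, and the array methods name no host strain.

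Prostaglandin E2 is a lipid made from arachidonic acid by the cyclooxygenases and the prostaglandin E synthases, and it acts through these 4 G protein-coupled receptors. EP2 and EP4 couple to Gs, raise cyclic AMP and so reach protein kinase A and the transcription factor CREB. EP3 couples mainly to Gi and lowers cyclic AMP, and EP1 raises intracellular calcium. In tumors, EP2 and EP4 on macrophages, other myeloid cells and T cells are known for carrying the immunosuppressive action of prostaglandin E2. Whole tumor RNA mixes all these cells with the cancer cells, so more cells of a type and more RNA per cell cannot be told apart.

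The level of a probe is given as log2 of its intensity after division by the 75th percentile of its array, a scale on which 1 unit is a doubling of intensity. Levels of different probes are not compared, because each probe has its own brightness. Testing was limited to the 31912 probes that the scanner software marked well above background on both arrays of some group. Of the receptor probes, 4 of 9 passed: the probe for Ptger1, the probe for Ptger2 and 2 of the 3 for Ptger4. None of the 4 Ptger3 probes passed. None of the 4 passed through its brightest group alone: the Ptger4 probe A_51_P207988 passed in 3 groups (7 of 8 arrays above background), Ptger1 in 2 (6 of 8 arrays), and the others in all 4. A probe is called changed when its fold reaches 2 and its unadjusted limma p does not exceed 0.05, the limits set in the study's methods. Calls that also hold after Benjamini-Hochberg adjustment, again to 0.05, are given apart. Groups whose arrays do not overlap are described as such, but the share of all probes without overlap was not counted. Such separation is therefore not read as support for a change. The p-values rest on the spread between the 2 samples within each group, taken over the 4 groups and moderated over all tested probes. As a sample may be 1 tumor or a pool, this need not be the spread between single mice.

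The probe sequences are shown because each gives the stretch and strand of RNA that a value rests on. Each is the first 30 of the probe's 60 bases, 5′ to 3′ in the sense of the RNA, from the array annotation.
Ptger1, A_55_P2503345: cgccgcaaccttagttctaagattcgggct
Ptger2, A_51_P249215: taaatgcagtcagaccaaatgaaattcatt
Ptger3, A_51_P520718: ctaaatgttcagctagagctgttaaaagga
Ptger4, A_55_P2747136: ctgatactgatatgattttaaagcgtagct
Ptger4, A_51_P207988: aagcacattggctgtcattctgatgtgact
Ptger4, A_55_P2719165: cactttctcagtatgtgttttgtatgtaca
In the mm9 build these stretches lie at chr8:86193678-86193707 on the plus strand for Ptger1, chr14:45622004-45622033 on the plus strand for Ptger2 and chr3:157307508-157307537 on the plus strand for Ptger3. The Ptger4 stretches lie on the minus strand at chr15:5183452-5183481 for A_55_P2747136, chr15:5184449-5184478 for A_51_P207988 and chr15:5156704-5156733 for A_55_P2719165. Exons and untranslated regions were not placed here. The first pair of Ptger4 probes is separated by 937 bases. The third lies 26689 bases from its nearest neighbour, more than the 10789 bases that RefSeq gives the whole gene in GRCm38.p6. It rests on an Ensembl transcript and not on a RefSeq one, and whether that transcript is part of Ptger4 was not checked here.

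Ptger4, the gene of the receptor that TP-16 blocks, was lowest in vehicle tumors and highest in tumors given the combination, by both of its measured probes. The probe A_55_P2747136 was well above background on 8 of 8 arrays. Its intensity was 286 and 380 in vehicle, 910 and 628 in TP-16, 651 and 505 in anti-PD-1 and 1490 and 2680 in combination. On the log2 scale its level was -0.37 and 0.01 in vehicle, 0.78 and 0.19 in TP-16, 0.71 and 0.28 in anti-PD-1 and 1.29 and 1.87 in combination. Both combination arrays lay above the other 6, both vehicle arrays lay below the other 6, and the arrays of the single agents overlapped. The group means were -0.18 ± 0.27 in vehicle, 0.48 ± 0.42 in TP-16, 0.50 ± 0.30 in anti-PD-1 and 1.58 ± 0.41 in combination (SD, n = 2 each).

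The probe A_51_P207988 gave the same order of the combination over the single agents and the single agents over vehicle. Its intensity was 20.3 and 42.9 in vehicle, 113 and 88.8 in TP-16, 70.2 and 76.3 in anti-PD-1 and 200 and 359 in combination. The first vehicle array was not well above background here, so only 1 of 2 vehicle arrays measured it. Its log2 level was -4.19 and -3.14 in vehicle, -2.23 and -2.63 in TP-16, -2.50 and -2.44 in anti-PD-1 and -1.60 and -1.03 in combination. No vehicle array overlapped with any treated array, and no combination array with any other. The distant probe A_55_P2719165, whose place in Ptger4 was not checked, stayed between 3.82 and 5.41 in intensity and was well above background on 0 of 8 arrays.

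Ptger2, the gene of the other receptor that raises cyclic AMP, followed a like course. Its probe was well above background on 8 of 8 arrays, with intensities of 41.3 and 77.2 in vehicle, 141 and 134 in TP-16, 92.6 and 82.0 in anti-PD-1 and 323 and 576 in combination. The log2 levels were -3.17 and -2.29 in vehicle, -1.91 and -2.04 in TP-16, -2.10 and -2.34 in anti-PD-1 and -0.91 and -0.35 in combination. Both combination arrays lay above the other 6, both TP-16 arrays lay above vehicle, and the anti-PD-1 arrays overlapped with vehicle.

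Ptger1, the gene of the calcium-coupled receptor, was dim. Its probe gave intensities of 21.4 and 42.4 in vehicle, 30.6 and 43.2 in TP-16, 18 and 25.8 in anti-PD-1 and 42.3 and 42.6 in combination. It was well above background on 6 of 8 arrays, the exceptions being the first vehicle and the first anti-PD-1 array. The log2 levels ran from -4.46 to -3.16 and every treated group overlapped with vehicle.

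Ptger3, the gene of the receptor that lowers cyclic AMP, was above background on 1 array only. Its probe A_51_P520718 gave intensities of 4.49 and 5.40 in vehicle, 8.55 and 7.65 in TP-16, 7.14 and 7.33 in anti-PD-1 and 22.3 and 29.7 in combination, and only the second combination array was well above background. The lowest intensity that the software marked well above background was 18.9 to 26.8 on the 8 arrays, so the other 7 values are bounds and no fold is given. The other 3 Ptger3 probes were above background on 0 of 8 arrays, with intensities of 3.99 to 11.8.

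**Figure D1:**
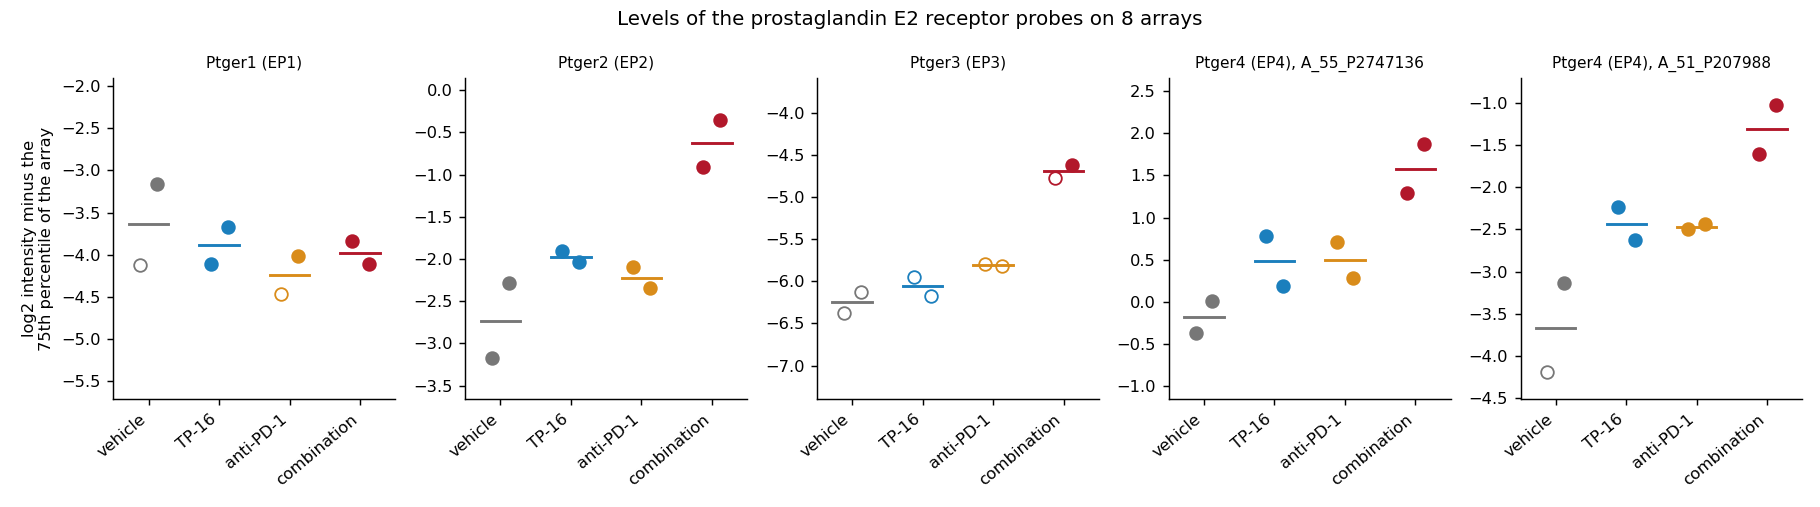
Levels of 5 receptor probes on the 8 arrays, as log2 of intensity over that percentile, with 1 point per array, a line at the mean of the 2 arrays of each group, and open points where the array was not well above background. The panels span the same number of log2 units but have their own positions, since levels of different probes are not comparable. The combination points of Ptger2 and of both Ptger4 probes lie above all others, and those of Ptger1 lie among the others. The Ptger3 probe is open on all arrays but the second of the combination.

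The first comparison asks how both agents together differed from vehicle. Ptger2 and both measured Ptger4 probes rose. The log2 fold change was 2.35 (SE 0.38, 95% confidence interval 1.41 to 3.28) for the Ptger4 probe A_51_P207988, a 5.09-fold rise with a limma adjusted p of 0.0119 against a vehicle group in which 1 of 2 arrays measured the probe. It was 1.77 (SE 0.31, interval 1.01 to 2.52) for the Ptger4 probe A_55_P2747136, a 3.40-fold rise with a limma adjusted p of 0.0135. For Ptger2 it was 2.10 (SE 0.33, interval 1.29 to 2.91), a 4.29-fold rise with a limma adjusted p of 0.0113. Ptger1 differed by -0.34 (interval -1.22 to 0.54, limma adjusted p of 0.496) and was not called. Thus 3 of 4 tested probes were called, all higher and all also at adjusted p. Of all probes tested, 15.3% were called in this comparison, 6.12% higher and 9.17% lower, and 12.5% also at adjusted p. The Ptger4 probes ranked 340 and 828 and the Ptger2 probe 484 from the top of 31912 changes.

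In this comparison the median change of all tested probes was -0.202, and relative to it the Ptger4 probes changed by 2.55 and 1.97, Ptger2 by 2.30 and Ptger1 by -0.13. Of all calls, 40% were higher here and 68.4% after quantile normalization, under which the Ptger2 and Ptger4 probes still rose. The call at adjusted p was lost for Ptger2 and both Ptger4 probes when the second combination array was left out (limma adjusted p of 0.0748 to 0.0838), in a fit of the 2 groups alone (0.0635 to 0.0642) and in the methods' t-test (adjusted p of 0.179 to 0.204). The methods' t-test also ended the calls at the unadjusted threshold for Ptger2 and A_51_P207988, so that 1 of 4 tested probes, A_55_P2747136, was still called. With normexp background correction the changes were smaller, 1.04 for A_51_P207988, 1.57 for A_55_P2747136 and 1.32 for Ptger2, and all 3 were still called. Over all alternatives the adjusted p of these 3 probes ran from 0.00332 to 0.204.

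With TP-16 alone, Ptger4 rose at the unadjusted threshold by 1 of its 2 measured probes. The probe A_51_P207988 changed by 1.24 (SE 0.38, interval 0.30 to 2.17; 2.36-fold; limma p of 0.0181, adjusted p of 0.128). The probe A_55_P2747136 changed by 0.67 (interval -0.09 to 1.43, limma p of 0.0738, adjusted p of 0.232), and Ptger2 by 0.76 (interval -0.05 to 1.56, limma p of 0.0608, adjusted p of 0.211). Neither was called. The TP-16 arrays of these probes did not overlap with vehicle, a separation whose share among all probes was not counted. Ptger1 changed by -0.25 (interval -1.13 to 0.63) and was not called. The count of 1 of 4 tested probes stands beside 6.18% of all probes, 1.57% higher and 4.61% lower, and 0.0533% were called at adjusted p. Relative to the median change of all probes, -0.123, the Ptger4 probes changed by 1.36 and 0.79 and Ptger2 by 0.88. Of all calls, 25.4% were higher here and 70.3% after quantile normalization. The single call was lost without the first vehicle array, which had not measured this probe (0.71), without the first TP-16 array (1.03, limma p of 0.089), with normexp background correction (0.28) and in the methods' t-test. Ptger2 was called as well after quantile normalization (1.03, limma p of 0.0141), with the authors' log2 values (1.02) and without the second vehicle array (1.20, limma p of 0.00664).

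Anti-PD-1 alone gave a Ptger4 call by the same probe. A_51_P207988 changed by 1.19 (SE 0.38, interval 0.26 to 2.13; 2.29-fold; limma p of 0.0209, adjusted p of 0.297), and A_55_P2747136 by 0.68 (interval -0.08 to 1.44, limma p of 0.07, adjusted p of 0.377). Ptger2 changed by 0.51 (interval -0.30 to 1.32, limma p of 0.172) and Ptger1 by -0.60 (interval -1.48 to 0.28, limma p of 0.147), and neither was called. The count of 1 of 4 tested probes stands beside 3.83% of all probes, 1.67% higher and 2.16% lower, with 0.0721% called at adjusted p. The median change of all probes was -0.0967. Of all calls, 43.6% were higher here and 74.5% after quantile normalization. The Ptger4 call was lost without the first vehicle array (0.67), without either anti-PD-1 array (1.22 and 1.16, limma p of 0.0633 and 0.0732), with normexp (0.44) and in the methods' t-test. Without the first vehicle array, where the Ptger1 probe was not above background, Ptger1 was called lower (-1.08, limma p of 0.014, adjusted p of 0.166). The 3 comparisons with vehicle share the same 2 vehicle arrays.

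The next comparisons ask what each agent added to the other. Against TP-16 alone, the combination was higher for Ptger2 by 1.34 (SE 0.33, interval 0.54 to 2.15, limma p of 0.00668, adjusted p of 0.137). The Ptger4 probes were higher by 1.1 (SE 0.31, interval 0.34 to 1.85, limma p of 0.0123) and 1.11 (SE 0.38, interval 0.17 to 2.05, limma p of 0.0274). This made 3 of 4 tested probes at the unadjusted threshold, beside 4.34% of all probes, and 0 of 4 at adjusted p in limma. Against anti-PD-1 alone, Ptger2 was higher by 1.59 (SE 0.33, interval 0.79 to 2.40, limma p of 0.00301, adjusted p of 0.0741), and the Ptger4 probes by 1.09 (SE 0.31, interval 0.33 to 1.84, limma p of 0.0129) and 1.16 (SE 0.38, interval 0.22 to 2.09, limma p of 0.0236). Again 3 of 4 were called at the unadjusted threshold, beside 4.27% of all probes, and 0 of 4 at adjusted p, although the adjusted p of Ptger2 ran from 0.0268 to 0.36 over the alternatives, and that of the Ptger4 probe A_55_P2747136 from 0.0376, with normexp, to 0.46. Of all calls against anti-PD-1, 53.8% were higher here and 70.8% after quantile normalization. The calls of both Ptger4 probes were lost against TP-16 without the second TP-16 or the second combination array (0.80 to 0.91), and against anti-PD-1 without the second anti-PD-1 array (0.87 and 1.19) or the second combination array (0.80 and 0.87). A_51_P207988 was also lost against anti-PD-1 without the first anti-PD-1 array (1.13), and normexp ended its calls against TP-16 (0.76) and anti-PD-1 (0.61) and the call of A_55_P2747136 against TP-16 (0.99). The methods' t-test called neither Ptger4 probe in these comparisons. The Ptger2 call stayed in both comparisons under every alternative that was run, with changes of 1.05 to 1.62 against TP-16 and 1.12 to 1.87 against anti-PD-1.

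The departure from additivity asks whether the combination differed from the sum of both single changes. On the log2 scale it was 0.83 for Ptger2 (interval -0.31 to 1.97), 0.42 for the Ptger4 probe A_55_P2747136 (interval -0.65 to 1.49), -0.08 for A_51_P207988 (interval -1.41 to 1.24) and 0.52 for Ptger1 (interval -0.73 to 1.76). None of the 4 was called, with unadjusted limma p from 0.123 to 0.886, beside 3.2% of all probes. These intervals hold departures of more than 1 log2 unit, so additive and non-additive changes could not be told apart with 2 arrays a group. Without the first vehicle array the departure of Ptger2 was called at 1.27 (limma p of 0.0144, adjusted p of 0.281). Of all calls, 83.3% were higher here and 52% after quantile normalization.

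**Figure D2:**
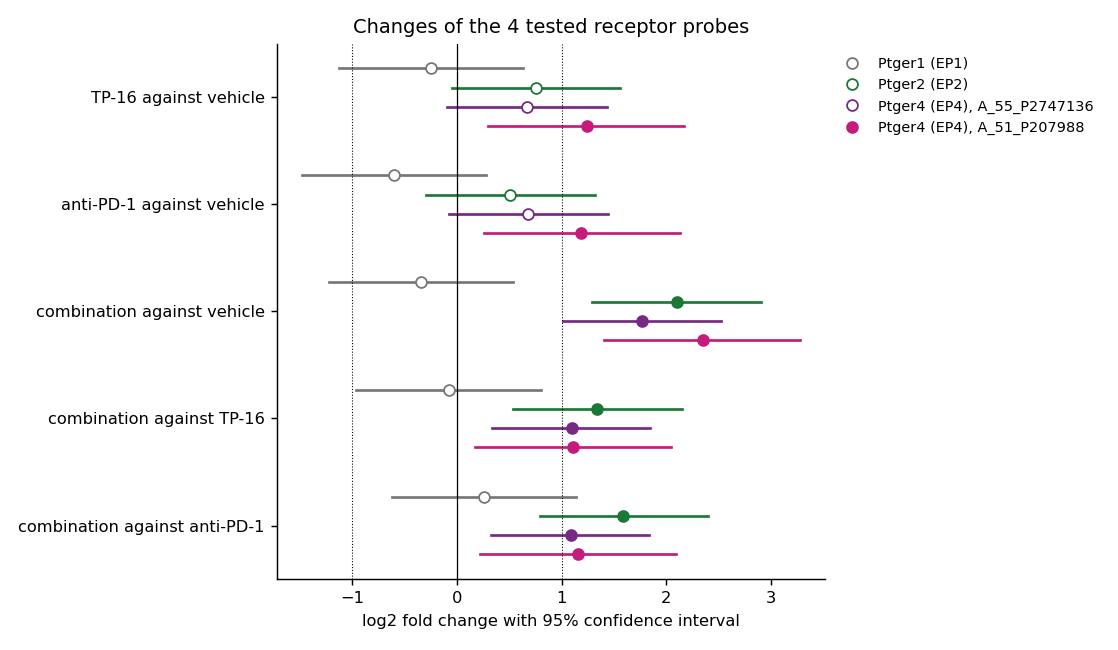
Log2 fold changes of the 4 tested receptor probes in 5 comparisons, with 95% confidence intervals from limma, filled points where the probe was called (fold of 2, unadjusted p of 0.05), and dotted lines at a fold of 2. Ptger2 and the Ptger4 probes are at 1.77 to 2.35 for the combination against vehicle, and the intervals of Ptger1 include 0 throughout.

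**Figure D3:**
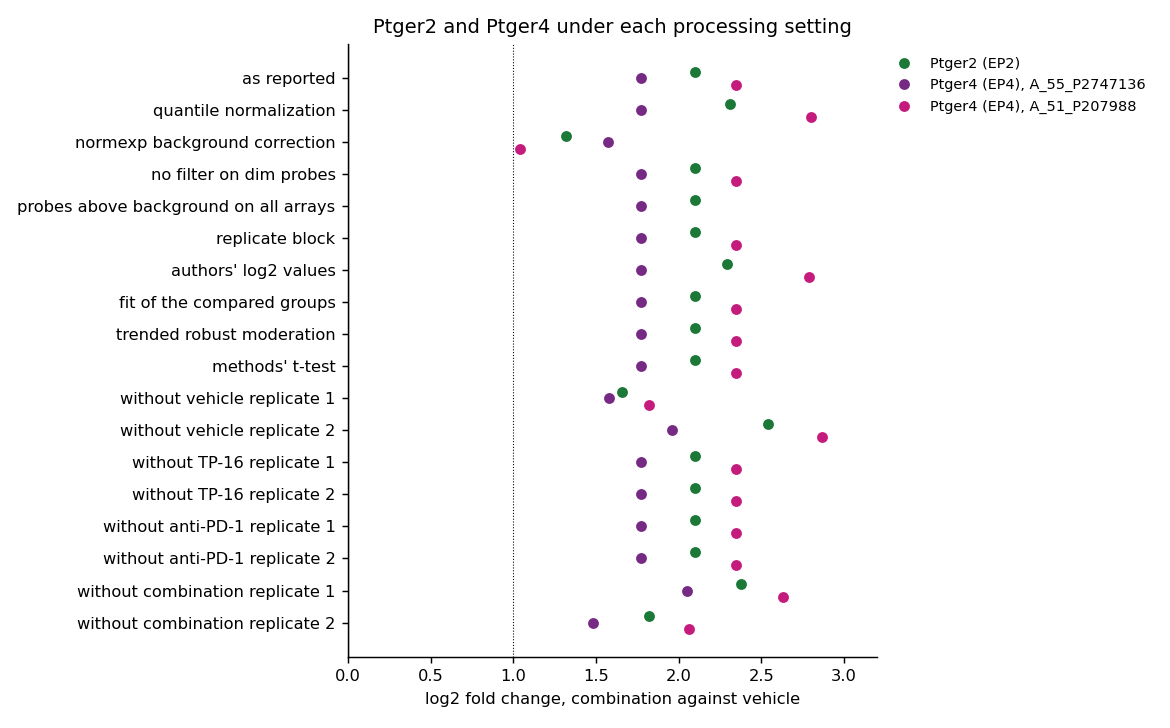
Log2 fold change of the Ptger2 and Ptger4 probes for the combination against vehicle, as reported and under each alternative, with a dotted line at a fold of 2. All points lie above that line, and the lowest, 1.04, is the Ptger4 probe A_51_P207988 with normexp background correction.

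Ptger2 and Ptger4 varied together over the 8 arrays. Pearson's r of the Ptger2 probe was 0.96 with the Ptger4 probe A_55_P2747136 and 0.95 with A_51_P207988, and 0.839 and 0.932 over the 6 arrays without the combination. The pair of Ptger4 probes correlated at 0.95. Ptger1 correlated with Ptger2 at -0.0586 and with the Ptger4 probes at -0.307 and -0.171. These are descriptions over 8 arrays that share the 4 treatments and the scaling. Among 19417 probes of named genes above background on all arrays, the 3 most like the Ptger4 probe A_55_P2747136 were Slco3a1, an organic anion transporter that can carry prostaglandins (r = 0.997), Ubash3b, a phosphatase that restrains receptor signaling (0.996), and Ctsh, a lysosomal cysteine protease (0.995). Those most like Ptger2 were Man2b1, the lysosomal alpha-mannosidase (0.992), Dock2, a Rac activator of leukocytes (0.990), and Tigd2 (0.989).

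Because these genes moved together, the 250 bases upstream of their RefSeq start sites are shown (GRCm38.p6), with matches to 6 motifs in capitals. The motifs, searched on both strands, were the cyclic AMP response element TGACGTCA, its core TGACG (which the full element contains), the AP-1 motif TGACTCA, the STAT motif TTCNNNGAA, the Sp1 motif GGGCGG and the CCAAT box.
Ptger2, chr14:44987861-44988110, plus strand: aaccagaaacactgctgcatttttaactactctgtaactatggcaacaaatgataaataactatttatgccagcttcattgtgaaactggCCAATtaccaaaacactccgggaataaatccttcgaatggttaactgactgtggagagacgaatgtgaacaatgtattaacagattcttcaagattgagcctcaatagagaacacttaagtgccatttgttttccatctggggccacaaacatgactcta
Ptger4, chr15:5244188-5244437, minus strand: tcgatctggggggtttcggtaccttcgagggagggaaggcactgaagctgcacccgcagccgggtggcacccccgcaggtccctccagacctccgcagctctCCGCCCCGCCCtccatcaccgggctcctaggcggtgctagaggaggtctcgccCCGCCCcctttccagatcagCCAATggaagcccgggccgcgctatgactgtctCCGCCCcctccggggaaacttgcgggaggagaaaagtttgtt
The Ptger2 stretch held 1 CCAAT box, at -160 to -156 from the start, and the Ptger4 stretch held 1 CCAAT box, at -75 to -71, and 4 Sp1 motifs on the opposite strand, 2 of which share 1 base. Of 32851 promoter windows of this length, 33.8% held a CCAAT box and 32.7% an Sp1 motif. Neither stretch held the full or core cyclic AMP element, AP-1 or STAT letters, which 1.55%, 17.8%, 4.46% and 7.02% of the windows held. The stretches differed in base composition, with 38% G and C for Ptger2 and 66.8% for Ptger4, against a median of 52.4%.

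The other genes of the pathway were taken from 7 lists, 1 probe per gene. Their counts stand beside 6.12% of all probes called higher and 9.17% lower with the combination, 1.57% and 4.61% with TP-16, and 1.67% and 2.16% with anti-PD-1. With no minimum fold, 46.2% of all probes passed 0.05 without adjustment with the combination, 25.9% with TP-16 and 14.5% with anti-PD-1, and counts past that p alone are read beside these shares. Of the other prostanoid receptors, 3 of 5 genes on the array could be tested. Ptgir, the prostacyclin receptor, rose by 1.22 (SE 0.21, limma adjusted p of 0.0136) with the combination, and Ptgfr, the prostaglandin F receptor, whose probe was above background on 1 of 2 vehicle arrays, rose by 1.14 at the unadjusted threshold with anti-PD-1 (limma p of 0.00823, adjusted p of 0.259). With normexp these were 0.73 and 0.30 and were not called, and after quantile normalization Ptgfr was at 1.96.

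Of the 6 genes that make prostaglandin E2, limma called 0 in any comparison with vehicle, while 5 of 6 with the combination, 2 of 6 with TP-16 and 0 of 6 with anti-PD-1 passed 0.05 without adjustment at folds under 2. Their median change with the combination was -0.46 beside -0.202 over all probes. Ptgs2, the inducible cyclooxygenase, changed by 0.13 (SE 0.23, limma p of 0.586) with the combination, and Ptges, the inducible prostaglandin E synthase, by -0.48 (SE 0.12, 1.40-fold, limma adjusted p of 0.0298), under the fold of 2. After quantile normalization the Ptges change was -0.13. Of the 6 genes for transport and breakdown, 2 rose with the combination, and 0 were called with either single agent, while 3 of 6 with the combination, 1 of 6 with TP-16 and 2 of 6 with anti-PD-1 passed 0.05 without adjustment. Hpgd, the dehydrogenase that inactivates prostaglandin E2, had log2 levels of -3.63 and -2.95 in vehicle, -3.05 and -2.75 in TP-16, -2.28 and -2.72 in anti-PD-1 and -1.36 and -0.91 in combination. It rose by 2.15 (SE 0.30, 4.44-fold, limma adjusted p of 0.0104) with the combination, and by 1.09 with normexp, where it was still called. With anti-PD-1 it changed by 0.78 and was called after quantile normalization (1.11, limma p of 0.00538) and with the authors' log2 values (1.1). Slco2a1, the prostaglandin uptake transporter, rose by 1.1 (SE 0.13, limma adjusted p of 0.0102), and by 0.91 with normexp, where it was not called.

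Downstream of the receptors, limma called 0 of 12 tested G protein and adenylyl cyclase genes with vehicle as the reference, and 3 of 12 with the combination, 0 of 12 with TP-16 and 1 of 12 with anti-PD-1 passed 0.05 without adjustment at folds under 2. After quantile normalization 2 were called higher with the combination and 1 with anti-PD-1. Of 7 receptor kinases, arrestins and the EP4-associated protein, 2 rose with the combination, namely Grk3, a kinase that desensitises receptors (1.73, limma p of 0.0238, adjusted p of 0.0647, but 0.97 and not called with normexp), and Arrb1, beta-arrestin 1 (1.09, limma adjusted p of 0.0102). The vehicle arrays of Grk3 lay far apart, at log2 levels of -3.04 and -1.57, beside -0.86 and -0.28 in combination. Of 19 cyclic AMP effectors and phosphodiesterases, Pde4c, which degrades cyclic AMP, fell by 1.34 with the combination (limma adjusted p of 0.0102), and by 0.84 after quantile normalization, where it was not called. The Pde4c probe was very bright, with log2 levels of 7.22 and 7.11 in vehicle and 5.97 and 5.69 in combination. Whether so bright a probe responds in proportion to RNA was not tested. Rapgef4, an exchange factor that binds cyclic AMP, met the threshold with TP-16, but it was above background on no vehicle and no TP-16 array, and it did not meet the threshold after quantile normalization, with the authors' log2 values or with normexp, so no change is reported for it. Crem, a CREB family member, changed by 0.65 with the combination (1.57-fold, limma adjusted p of 0.0404).

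Of 13 early response genes of cyclic AMP and CREB, 2 rose and 1 fell with the combination, 3 of 13 beside 15.3% of all probes. Areg, which encodes the growth factor amphiregulin, had log2 levels of 1.70 and 0.80 in vehicle, -0.11 and 0.27 in TP-16, 0.19 and 0.78 in anti-PD-1 and -0.89 and -1.35 in combination. It fell by 2.37 with the combination (SE 0.37, limma adjusted p of 0.0114), by 1.17 with TP-16 at the unadjusted threshold (limma p of 0.0202, adjusted p of 0.133), and changed by -0.77 with anti-PD-1 (limma p of 0.0846). Fos, an AP-1 subunit, rose by 1.25 (limma adjusted p of 0.0102) and Rgs2, a regulator of G protein signaling, by 1.18 (limma adjusted p of 0.0226) with the combination. Nr4a1, a nuclear receptor of the early response, changed by -0.38, -0.16 and -0.05 in the order TP-16, anti-PD-1, combination, and was not called. The median change of the list with the combination was -0.05, beside -0.202 over all probes.

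**Figure D4:**
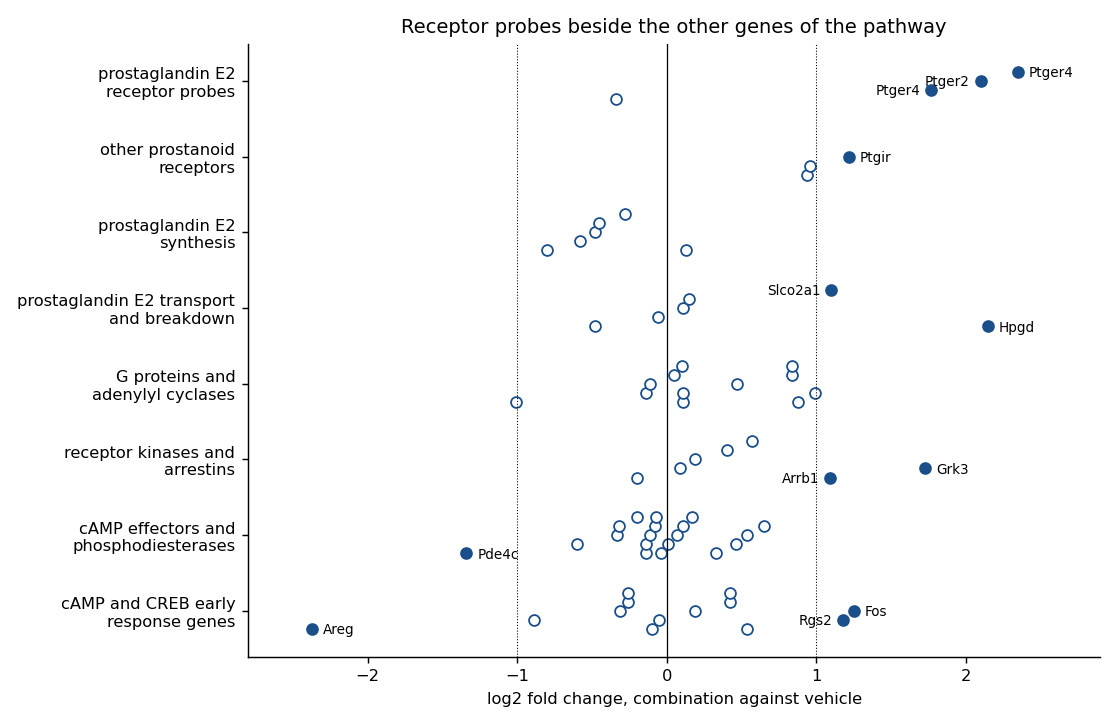
Log2 fold change between combination and vehicle for the 4 tested receptor probes and for the genes of 7 pathway lists, 1 point per probe, filled and named where called (fold of 2, unadjusted p of 0.05), with dotted lines at a fold of 2. The called receptor probes, at 1.77 to 2.35, lie among the highest points with Hpgd at 2.15, and Areg at -2.37 is the lowest.

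Markers of cell types that can carry these receptors moved with the treatments. At the unadjusted threshold, with the combination, 7 of 8 T cell markers rose (median change 2.60, 4 of 8 also at adjusted p), 6 of 9 macrophage markers (1.03), 5 of 6 mast cell markers (1.48), 3 of 6 fibroblast markers (0.96) and 2 of 5 endothelial markers (0.56), beside 6.12% of all probes. The summed linear level of the T cell list, each probe relative to the 75th percentile, was 4.73 to 16.1 in vehicle, 22.4 to 26.6 in TP-16, 20.4 to 25.9 in anti-PD-1 and 31.7 to 53.6 in combination. No vehicle array overlapped with a treated one in this sum, and no combination array with any other. The fibroblast sums were separated in the same way, at 212 to 242, 258 to 283, 277 to 303 and 384 to 398 in this order of groups. Macrophage sums were 148 to 201, 197 to 215, 179 to 222 and 275 to 396, and mast cell sums were 14.1 to 19.6, 17.7 to 22.0, 34.9 to 42.0 and 43.5 to 52.4. With TP-16 alone 4 of 8 T cell, 0 of 9 macrophage and 0 of 6 mast cell markers rose, and with anti-PD-1 alone 2 of 8, 0 of 9 and 4 of 6, beside 1.57% and 1.67% of all probes. With either agent alone 0 of 6 fibroblast markers (median changes 0.20 and 0.40) and 0 of 5 endothelial markers (-0.34 and -0.26) were called. The T cell count depended on the scaling, with 6 of 8 for TP-16 and 5 of 8 for anti-PD-1 with normexp and 4 of 8 and 1 of 8 after quantile normalization. The median change of the list was 1.67 with either agent alone, while normexp gave 1.46 (TP-16) and 1.21 (anti-PD-1) and quantile normalization 1.69 and 1.72. The part of these cells in the change of Ptger2 and Ptger4 was not tested.

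Of the other lists with the combination, 2 of 7 neutrophil markers fell, and 3 were called higher instead after quantile normalization. The summed neutrophil level was 106 to 116 in vehicle, 77.1 to 88 in TP-16, 93.9 to 95 in anti-PD-1 and 55.2 to 69.6 in combination. Of 4 B cell markers 2 fell, where quantile normalization gave 1 higher and 1 lower, and the summed level was 1.38 to 1.79 against 0.749 to 1.32 in vehicle. Of 5 epithelial markers 2 fell, Krt8 and Krt18, 1 of them (Krt18) also at adjusted p. The median change of this list was -0.73, and -0.09 after quantile normalization, which gave 1 marker higher and 2 lower. Limma called 0 of 5 skeletal muscle, 0 of 4 adipose tissue and 0 of 3 tested epidermal markers with the combination, and 0 passed 0.05 without adjustment at any fold, while normexp called 1 skeletal muscle marker higher. With either single agent 0 of these 3 lists' markers were called. The summed level of the 3 epidermal markers was 3.5 to 4.71 in vehicle, 2.31 and 27.6 in the TP-16 arrays, 2.94 and 28 in the anti-PD-1 arrays and 1.93 to 2.30 in combination, so 1 array of each single agent stood apart, and the part of epidermis in the comparisons that use these arrays was not tested. The neutrophil marker Ngp, the epidermal markers Krt1 and Lor and the epithelial marker Epcam did not pass the filter, although the other 5 epithelial markers of this carcinoma did, with a summed level of 52.1 to 99.4 over all arrays.

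All 8 arrays lay on 1 slide, with vehicle and TP-16 in row 1 and anti-PD-1 and combination in row 2. Vehicle and anti-PD-1 filled columns 1 and 2, and TP-16 and combination columns 3 and 4. Row and antibody, and column and TP-16, cannot be told apart. The 75th percentile of intensity was 371.1 to 733.6, highest on the combination arrays, and 51.4% to 59.7% of probes were well above background. Over all tested probes, the SD of the log2 difference between the 2 arrays of a group was widest in vehicle, at 0.675. It was 0.525 in TP-16, 0.435 in anti-PD-1 and 0.417 in combination.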

How the data were processed

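Per the labels, RNA came from a column kit, whereas the methods give TRIzol. Groups came from the labels. The deposited scanner files (Agilent Feature Extraction 10.7.1.1) hold spot intensities that the software had background-subtracted and detrended. A deposited table made in GeneSpring holds log2 values of these arrays.

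Control spots and 38 probes with outlier marks were removed, spots of a probe were averaged, and the log2 75th percentile of each array was subtracted. All 8 arrays entered 1 limma 3.58.1 fit (R 4.3.3), 1 mean per group, with 4 residual degrees of freedom and 5.9 after moderation. The number of arrays limits the precision. Probe positions are mm9, and 6 of 9 receptor probes carry a RefSeq accession. Calculations were tested on simulated data. Alternatives were quantile normalization, normexp (offset 50), no filter, probes above background on all arrays, a replicate block, the deposited log2 values, fitting the compared groups alone, a fold of 1.5, robust moderation with a trend, each array left out, and the methods' t-test. The genes, lists and tests were chosen with earlier results of these data known, so no list count is independent support. Named genes are the 4 receptor genes, Ptgs2, Ptges, Hpgd, Nr4a1, Crem and Areg, the 3 probes most correlated with each receptor probe measured on all arrays, and per list and comparison with vehicle up to 2 called genes each way without overlap of arrays. One result that the rule names is not reported here. Figures used matplotlib 3.10.9.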

Additional observations from a re-analysis of the deposited data

Results flagged for a closer look

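The Ptger3 probe A_51_P520718 was outside the tested probes, yet it was well above background on the second combination array, with an intensity of 29.7. It was not well above background on the first combination array (22.3) or on either vehicle array (4.49 and 5.40).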

How the results depend on the processing

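The count of receptor probes called for the combination against vehicle was 3 and stayed within 2 to 4 in limma under every alternative, with 3 whichever array was left out, and was 1 in the methods' t-test. For TP-16 it was 1, and became 2 with quantile normalization and with the authors' log2 values, 0 with normexp, with probes above background on all arrays and in the methods' t-test, and 0 to 2 with arrays left out. For anti-PD-1 it was 1, and became 0 with normexp, with probes above background on all arrays and in the methods' t-test, and 0 to 1 with arrays left out. For the combination against TP-16 it was 3, and became 1 with normexp and in the methods' t-test, and 1 to 3 with arrays left out. Against anti-PD-1 it was 3, and became 2 with normexp, 1 in the methods' t-test and 1 to 3 with arrays left out. In both of these comparisons it was 2 with probes above background on all arrays and 4 without the filter on dim probes. Of all probes, 3.27% were called against TP-16 and 4.49% against anti-PD-1 without the filter. In the methods' t-test these shares were 1.63% and 1.83%. The call gained without the filter was the Ptger3 probe A_51_P520718, above background on 1 array only, for which no fold is given. The same probe made up the count of 4 for the combination against vehicle. For the departure from additivity it was 0, and became 1 without that filter, for a Ptger3 probe above background on 0 arrays, and 0 to 1 with arrays left out. The methods' t-test and the fit of the compared groups could not be run for the departure from additivity.

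Ptger1 turned from lower to higher in TP-16 and combination against vehicle with quantile normalization and the authors' log2 values (0.38 and 0.27 in both), and with arrays left out ranged from -0.74 to 0.23 and from -0.82 to 0.14. Its difference between combination and anti-PD-1 was -0.38 with normexp, and that between combination and TP-16 ranged from -0.30 to 0.14 with arrays left out. The departure from additivity of the Ptger4 probe A_51_P207988 was 0.33 with normexp and ranged from -0.61 to 0.44 with arrays left out. The cause was not tested. Of 388 values of single probes under alternatives, 343 kept direction and call, 27 lost the call, 5 gained it and 13 changed sign.

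The correlation of same-numbered deviations ranged from -0.193 to 0.29 over 6 pairs of groups. With 1 difference per group this cannot settle whether the replicate numbers pair the samples. With the replicate block the counts of receptor probes called were unchanged, 1 for TP-16, 1 for anti-PD-1, 3 in each comparison of the combination and 0 for the departure from additivity. Ptger1 and the dim Ptger4 probe lay near background on some arrays, and intensities there limit both.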
